A study of Mus musculus with 28 samples.

Results

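The levels of 4 transcription factors that act as repressors in effector lymphocytes were followed across every group of the series: Prdm1, which encodes Blimp-1, Bhlhe40, Zeb2 and Maf, which encodes c-Maf. They were chosen by name, as listed regulators of effector differentiation, with earlier results of these data known. They are 4 genes of the 21614 in the subset table, of the 20603 in the treatment table and of the 27933 in the single-cell table. The RNA was that of CD8+ T cells infiltrating MC38-OVA tumours (TILs), which grow from a mouse colon carcinoma line carrying ovalbumin, in C57BL/6 mice of wild-type genotype. One experiment sorted PD-1- cells by surface markers, Slamf7 and CX3CR1 among them, into 3 subsets, for which the labels give no treatment or day. These were effector-like (Slamf7hi and CX3CR1+) with 3 libraries, memory-like (Slamf7hi and CX3CR1-) with 5 and naive-like (Slamf7- and CX3CR1-) with 6. The other, the treatment experiment, compared Tim-3+PD-1+ (DP) with Tim-3-PD-1- (DN) cells at day 12 after implantation, each after blockade with antibodies against PD-1 and Tim-3 or after isotype control antibodies, with 3 libraries per group. Single DN cells were sequenced from 1 library after blockade and 1 after isotype. The labels do not say whether replicates came from separate mice, so the p-values speak to the spread between these samples alone. Effector-like replicates 1 and 2 have 3 numbers in their library names, so they may be pools.

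Blimp-1 is a zinc finger repressor with a PR domain that pushes activated CD8 T cells towards terminal effector differentiation and silences genes of naive and memory cells. Zeb2 is a zinc finger protein that binds E-boxes and acts with T-bet in short-lived cytotoxic effector cells, while its relative Zeb1 is linked to memory cells. Bhlhe40 is a basic helix-loop-helix repressor induced by T cell receptor signals and known for sustaining interferon-gamma and limiting Il10 in T cells. c-Maf is a leucine zipper factor that also activates genes such as Il10 and, with Blimp-1, drives a co-inhibitory receptor programme in exhausted TILs of mice.

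Promoter sequence was at hand for Prdm1 and Zeb2, and a window of each is shown because both genes were ordered alike across the subsets, though not in the treatment experiment. Each window runs from 250 bases before to 50 bases after an annotated start and was taken from RefSeq on GRCm38.p6, here chr10:44458699-44458998 for Prdm1 and chr2:45117393-45117692 for Zeb2, both on the minus strand. Capitals mark a match to CACCTG or its reverse complement CAGGTG, the E-box bound by Zeb2.
Prdm1: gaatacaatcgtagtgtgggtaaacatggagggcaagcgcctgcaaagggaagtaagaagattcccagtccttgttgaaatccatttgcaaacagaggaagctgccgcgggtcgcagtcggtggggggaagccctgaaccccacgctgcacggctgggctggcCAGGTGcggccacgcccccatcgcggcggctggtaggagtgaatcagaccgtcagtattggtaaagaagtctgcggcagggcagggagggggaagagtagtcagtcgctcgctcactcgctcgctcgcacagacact
Zeb2: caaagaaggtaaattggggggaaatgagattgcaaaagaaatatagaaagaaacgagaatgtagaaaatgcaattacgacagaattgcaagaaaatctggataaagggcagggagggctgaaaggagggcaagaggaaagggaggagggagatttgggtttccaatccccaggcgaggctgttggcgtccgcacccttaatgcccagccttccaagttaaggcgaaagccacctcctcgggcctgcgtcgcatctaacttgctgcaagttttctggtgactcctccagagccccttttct
The window of Prdm1 held 1 match, CAGGTG at bases 164 to 169, which begins 87 bases before the start. Among 32817 promoter windows, 20.2% held this motif on either strand. The other motifs searched on both strands were CACGTG (an E-box of Bhlhe40, in 7.15% of windows), GTGAAAG (a Blimp-1 core, in 4.24%) and TGCTGA (part of the Maf recognition element, in 19.5%), and none of them was found in either window printed here or in the other 3 windows of Zeb2, which also lacked CACCTG. A match describes the letters of a window and was not tested as a binding site.

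The bulk libraries held 5027112 to 7978200 counts in the subset and 8005818 to 13579262 in the treatment experiment, of which the ribosomal RNA gene Rn45s took 10.7 to 20.7%. Summed levels of 4 core CD8 T cell markers lay between 1609 and 2830.3 CPM (per-million counts) in every library. In an earlier analysis of these data memory-like replicate 2, naive-like replicate 4 and naive-like replicate 6 stood apart from their groups. Subset results of the 4 genes that change without them are therefore given both ways, here or in the closing sections. Results of other named genes, gene lists and cell markers were not recomputed without these libraries. All naive-like libraries are named with a date that differs from the date of the other subsets, so date and sort cannot be told apart. CPM here are scaled for library composition and not for gene length, so levels are compared between groups and not between genes.

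Prdm1, Bhlhe40 and Zeb2 were each ordered effector-like over memory-like over naive-like, whereas Maf showed no order. Calls were made at a Benjamini-Hochberg adjusted p under 0.05 over all 12388 genes tested, with edgeR's quasi-likelihood test. In effector-like against naive-like cells 3 of the 4 genes passed the test, all higher, beside 2.62% of all genes called higher and 6.42% called in either direction. In effector-like against memory-like cells 1 of 4 passed, as higher, beside 0.484% of all genes higher and 1.91% in either direction. In memory-like against naive-like cells 2 of 4 passed, both higher, beside 2.78% of all genes higher and 5.51% in either direction. These comparisons share libraries. In bulk samples, fewer cells with a transcript and less RNA per cell cannot be told apart.

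Prdm1 had 40.8, 48.0 and 61.1 CPM in effector-like libraries, and 25.4, 18.4, 22.7, 14.9 and 24.7 CPM in memory-like libraries. In naive-like libraries its lowest, median and highest levels were 0.490, 7.58 and 9.76 CPM. No 2 groups overlapped. The means were 49.98 ± 10.3, 21.2 ± 4.49 and 6.82 ± 3.27 CPM in effector-like (n = 3), memory-like (n = 5) and naive-like cells (n = 6; SD). Prdm1 was higher in effector-like than in naive-like cells by a log2 fold change of 2.87 ± 0.49 (SE, adjusted p = 0.00171 by edgeR), which held without any single library. It was also higher in memory-like than in naive-like cells (1.63 ± 0.44, adjusted p = 0.0427), a call that was lost in 13 of 14 fits that each left out a library, with adjusted p up to 0.0944, and kept in the fit without naive-like replicate 4. Between effector-like and memory-like cells the log2 fold change of 1.23 ± 0.51 did not pass (adjusted p = 0.333). Naive-like replicate 4 held 3 counts of Prdm1, and without that library the same contrast gave 1.22 with an adjusted p of 0.0143, in a fit where 2.41% of 12342 genes were called. Fitted on the libraries of both groups alone, it gave 1.25 with an adjusted p of 0.0375.

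Bhlhe40 had 583, 669 and 1059.8 CPM in effector-like libraries. In memory-like libraries it had 515, 265, 345, 385 and 360 CPM. The naive-like libraries had a lowest, median and highest level of 103, 175 and 204 CPM. The groups stood apart from each other at each step, although memory-like replicate 1 lay close to the lowest effector-like library. Mean levels were 771 ± 254 CPM in effector-like, 374 ± 90.6 CPM in memory-like and 164 ± 41.7 CPM in naive-like cells (SD, n = 3, 5 and 6). Bhlhe40 was higher in effector-like than in naive-like cells (log2 fold change 2.23 ± 0.23, adjusted p = 1.80e-05 by edgeR) and in memory-like than in naive-like cells (1.18 ± 0.21, adjusted p = 0.00407), and both calls held without any single library. It was the one gene of the 4 called between effector-like and memory-like cells (1.04 ± 0.25, adjusted p = 0.0424). That call was the least firm: it was lost in 9 of 14 fits that each left out a library, with 0.75 and an adjusted p of 0.245 without effector-like replicate 3, the library at 1059.8 CPM, and 0.93 with an adjusted p of 0.0851 without memory-like replicate 2.

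Zeb2 had 81.3, 124 and 148 CPM in effector-like libraries and 22.6, 40.8, 22.2, 17.9 and 27.8 CPM in memory-like libraries. The naive-like libraries had a lowest, median and highest level of 0, 11.6 and 23.3 CPM, where the 0 of replicate 4 allows up to 0.490 CPM (3 counts). Every effector-like library lay above every other library, while memory-like and naive-like libraries overlapped. The means were 118 ± 33.8, 26.3 ± 8.86 and 12.5 ± 7.87 CPM in effector-like, memory-like and naive-like cells (SD, n = 3, 5 and 6). Zeb2 was higher in effector-like than in naive-like cells by a log2 fold change of 3.24 ± 0.65 (adjusted p = 0.0058 by edgeR), also without any single library. Against memory-like cells its level was 4.48 times as high (2.16 ± 0.67), which did not pass in the fit over all 14 libraries (adjusted p = 0.152). The same contrast passed without naive-like replicate 4, a library of neither group, with 2.15 and an adjusted p of 0.00146, and in a fit on the effector-like and memory-like libraries alone, with 2.18 and an adjusted p of 0.00625. It passed by DESeq2 too (2.15, adjusted p = 0.0411). Between memory-like and naive-like cells Zeb2 gave 1.07 ± 0.58 (adjusted p = 0.330).

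Maf was low in all 3 subsets, at 13.6 CPM or less in every library. Its levels were 0.918, 2.68 and 7.61 CPM in effector-like libraries and 3.66, 13.6, 3.01, 1.97 and 3.97 CPM in memory-like libraries, against a lowest, median and highest of 0, 2.51 and 10.5 CPM in naive-like libraries. All 3 groups overlapped, and the value of 0 in naive-like replicate 2 allows up to 0.453 CPM. None of its contrasts passed the edgeR test: the log2 fold changes were -0.49 ± 1.12 for effector-like over memory-like (adjusted p = 0.947), 0.01 ± 1.07 for effector-like over naive-like (adjusted p = 0.997) and 0.51 ± 0.91 for memory-like over naive-like cells (adjusted p = 0.824), and all of them changed sign without the 3 libraries that stood apart. The highest value, 13.6 CPM, was in memory-like replicate 2, whose macrophage markers summed to 470.5 CPM, against 19.3 to 108 CPM in the other memory-like libraries. In naive-like cells the highest Maf (10.5 CPM) and Zeb2 (23.3 CPM) were in replicate 5, which also had the highest macrophage sum, 1045 CPM, but replicate 2, at 0 CPM of Maf, had a sum of 510 CPM. Effector-like replicate 1 had the highest sum of its group (464 CPM) and the lowest Maf (0.918 CPM), and replicate 3 the highest Maf (7.61 CPM) at a sum of 41.2 CPM. Of 10 macrophage markers 9 were in the table, with sums of 28.5 to 464 CPM in effector-like, 19.3 to 471 CPM in memory-like and 25.3 to 1045 CPM in naive-like libraries. Their part in these levels was not tested.

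**Figure D1:**
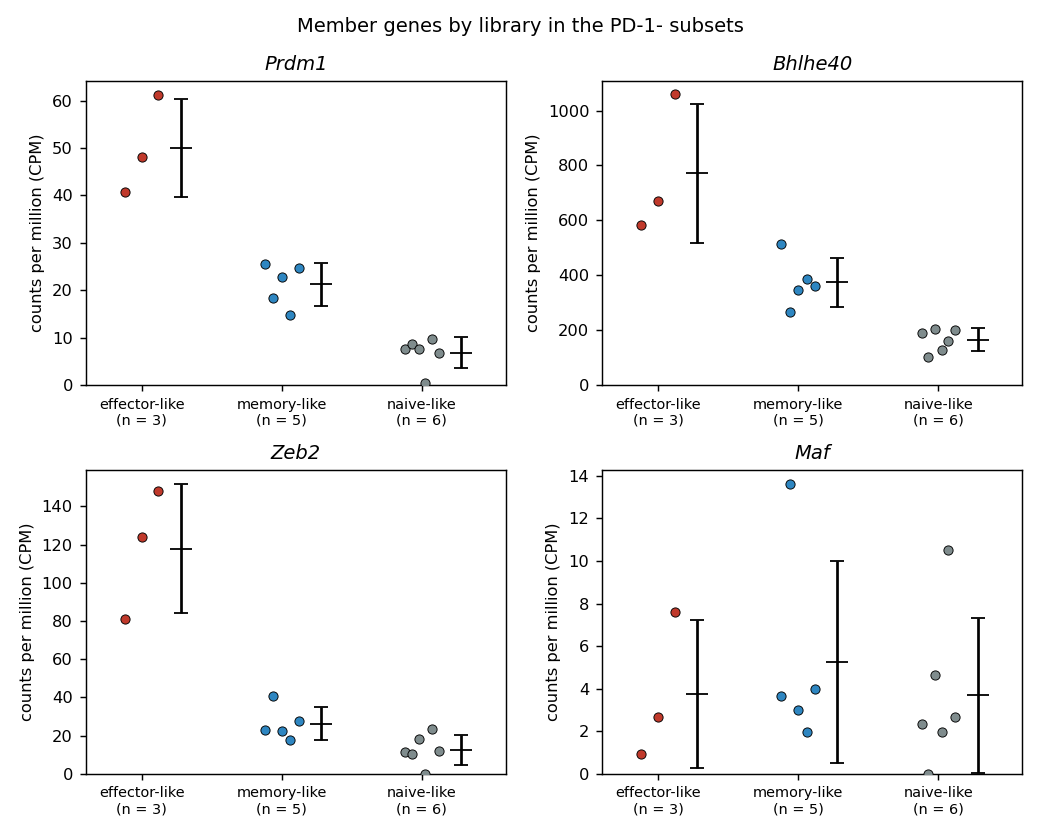
CPM of the 4 genes in each subset library (points) with group mean and SD (bars), for effector-like, memory-like and naive-like cells, each panel on its own axis from 0. Effector-like libraries lie above all others for Prdm1, Bhlhe40 and Zeb2, at 40.8 CPM or more, 583 CPM or more and 81.3 CPM or more, and the groups overlap for Maf.

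Markers of dendritic cells and of CD4 and regulatory T cells differed between the subsets as well. Plasmacytoid dendritic markers, all 10 measured, summed to 191 to 289 CPM in effector-like, 575 to 2383 CPM in memory-like and 182 to 687 CPM in naive-like libraries, and 3 of 10 were called lower in effector-like than in memory-like and 4 of 10 higher in memory-like than in naive-like cells. The 6 conventional dendritic markers summed to 251 to 964 CPM in effector-like, 82.5 to 368 CPM in memory-like and 4.57 to 305 CPM in naive-like libraries, with 1 called, as higher in effector-like than in naive-like cells. The 6 markers of CD4 and regulatory T cells summed to 66.6 to 100.5 CPM in effector-like, 162 to 294 CPM in memory-like and 48.8 to 131 CPM in naive-like libraries, and 4 were called higher in memory-like than in naive-like cells. Klk1 and Foxp3 were at 0 in all effector-like libraries. In the single DN cells described further on, the small cluster led by the dendritic genes H2-Aa, Ly6d and Klk1 held 415 and 410 CPM of Bhlhe40 and 78.3 and 84.5 CPM of Zeb2 after blockade and isotype. The part of such cells in the subset levels was not tested.

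Genes known to be repressed by Blimp-1, such as Tcf7, Id3 and Myc, were mostly lower in effector-like cells. Between effector-like and memory-like cells, 8 of 13 measured members fell and none rose, beside 1.43% of all genes called lower, with a median log2 fold change of -1.60 against 0.01 over all genes. Among them Myc, a driver of cell growth, fell by 2.57 (adjusted p = 1.72e-05 by edgeR), and Tcf7, the factor of naive and memory cells, fell by 1.60. Against naive-like cells 9 of 13 fell, beside 3.79% of all genes called lower, with a median of -1.66 against 0.04 over all genes. Between memory-like and naive-like cells 4 fell, beside 2.73% of all genes, and 1 rose. This list includes a gene used in the sort, without which 7, 8 and 3 of 12 fell in the same contrasts. Of 8 effector genes that Zeb2 is known to raise, 4 rose and 4 were not called in effector-like over memory-like cells, where 0.484% of all genes rose (median log2 fold change 2.05, against 0.01 over all genes). In effector-like over naive-like cells 7 of 8 rose, where 2.62% of all genes did (median 4.64, against 0.04). Those called in the first contrast were Klrg1, a marker of terminal effectors (3.60), the granzyme Gzma (2.80), perforin, Prf1 (1.298), and Cx3cr1, which marked the sort and without which 3 and 6 of 7 rose. Of 6 genes that Zeb2 is known to lower, 4 fell in each of these contrasts, with medians of -1.99 over memory-like and -1.73 over naive-like cells, against 0.01 and 0.04 over all genes. One of these was used in the sort, and without it 3 of 5 fell in each, with medians of -1.40 and -1.57. In memory-like over naive-like cells Zeb2 itself was not called. There 5 of the 8 raised genes were higher (median 2.12), beside 2.78% of all genes, and 4 of 7 without Cx3cr1. Of the 6 lowered genes 3 were lower, beside 2.73% of all genes, and 1 was higher (median -0.50). Without the sort gene, 2 of 5 were lower and 1 was higher.

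Among the counterparts and partners of these factors, Zeb1 was lower in effector-like than in naive-like cells (log2 fold change -2.06, adjusted p = 0.00887 by edgeR), and Bach2, which restrains effector differentiation and is opposed to Blimp-1, fell by 2.502 (adjusted p = 5.58e-05). Id3, an inhibitor of E proteins linked to memory, fell by 2.26 in effector-like against memory-like cells (adjusted p = 0.00837), whereas Zeb1 gave -0.88 there (adjusted p = 0.454). Bcl6, the mutual antagonist of Blimp-1, passed in none of the subset contrasts, with a log2 fold change of -0.57 between effector-like and naive-like cells (adjusted p = 0.585). Tbx21, which encodes T-bet, rose by 1.37 and Id2 by 1.44 in effector-like over naive-like cells, with adjusted p of 0.00331 and 5.92e-05. Of 10 effector partners tested in that contrast 2 rose, beside 2.62% of all genes called higher, and 8 were not called. Their median log2 fold change was 0.04, against 0.04 over all genes. Of 11 regulators of naive and memory cells 8 fell and none rose in that contrast, beside 3.79% of all genes called lower. Between effector-like and memory-like cells 3 of these regulators fell, beside 1.43% of all genes. Ifng and Tnf, the tested cytokines linked to Bhlhe40, both rose in effector-like over naive-like cells, by 2.35 and 1.303. Both were also called higher in memory-like than in naive-like cells. Neither was called in effector-like over memory-like cells, where their median log2 fold change was 0.37.

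In the treatment experiment Prdm1 and Bhlhe40 were higher in DP than in DN cells after either treatment, and Bhlhe40 rose with blockade in DN cells. Zeb2 passed in no contrast. Maf passed in 1 contrast, DP over DN cells after blockade. Of the 4 genes, 2 were called between DP and DN cells after isotype, beside 15% of the 12710 genes tested called higher and 29.9% in either direction, and 3 after blockade, beside 14.4% called higher and 27% in either direction. All of these were higher in DP cells, and a called gene is common in these contrasts. Blockade raised 1 of 4 in DN cells, beside 0.519% of all genes higher and 1.12% in either direction. It changed 0 of 4 in DP cells, beside 0.0629% of all genes.

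Prdm1 had 97.7, 86.9 and 63.7 CPM in DP cells after blockade and 91.8, 79.6 and 66.6 CPM in DP cells after isotype. In DN cells it had 40.4, 38.2 and 39.3 CPM after blockade and 29.98, 20.3 and 14.8 CPM after isotype. The DP groups overlapped each other and lay above both DN groups, and within DN cells every blockade library lay above every isotype library. Group means were 82.8 ± 17.4, 79.3 ± 12.6, 39.3 ± 1.07 and 21.7 ± 7.69 CPM in the same order (SD, n = 3 each). DP cells exceeded DN cells by a log2 fold change of 1.08 ± 0.22 after blockade (adjusted p = 0.00356 by edgeR) and 1.87 ± 0.23 after isotype (adjusted p = 7.66e-05). Blockade gave 0.06 ± 0.22 in DP cells (adjusted p = 0.984). In DN cells it gave 0.86 ± 0.23, which missed the threshold (adjusted p = 0.0893) and passed with the replicate number of the titles as a block, at 0.91 with an adjusted p of 0.0465, in a fit that called 0.464% of genes. DESeq2 also called it (0.87, adjusted p = 0.0112).

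Bhlhe40 had 1537, 1522 and 1472 CPM in DP cells after blockade and 1409.97, 1163 and 1516 CPM after isotype. In DN cells its levels were 606, 665 and 986 CPM after blockade, against 495, 386 and 325 CPM after isotype. As with Prdm1, both DP groups overlapped, and DN cells after blockade lay between DP cells and DN cells after isotype without overlap. The means were 1510.3 ± 33.9 CPM in DP cells after blockade, 1363 ± 181 CPM in DP cells after isotype, 752 ± 204 CPM in DN cells after blockade and 402 ± 86.1 CPM in DN cells after isotype (SD, n = 3 each). The log2 fold change of DP over DN cells was 1.01 ± 0.18 after blockade (adjusted p = 0.00169 by edgeR) and 1.76 ± 0.19 after isotype (adjusted p = 2.68e-05). Blockade raised Bhlhe40 in DN cells by 0.90 ± 0.18 (adjusted p = 0.0415), while DP cells gave 0.15 ± 0.18 (adjusted p = 0.935). The call in DN cells did not hold with the replicate block (0.89, adjusted p = 0.0721), nor in 10 of 12 fits that each left out a library, where the log2 fold change ran from 0.66 without DN blockade replicate 3 to 1.11 without DN isotype replicate 1 and the adjusted p reached 0.133. It was kept without DN blockade replicate 1 or 2.

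Whether blockade acted differently on the 2 cell types was tested as an interaction, DP minus DN. Its log2 value was -0.80 ± 0.31 for Prdm1 (adjusted p = 0.527 by edgeR) and -0.76 ± 0.26 for Bhlhe40 (adjusted p = 0.425). For Maf it was 1.88 ± 0.68 (adjusted p = 0.466) and for Zeb2 -0.34 (adjusted p = 0.737). None of the 4 passed, and edgeR called 0 of 12710 genes, with 1070 at an unadjusted p under 0.05. DESeq2 called 97 genes, and edgeR without a filter on low counts called 7.

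Maf had 5.33, 3.82 and 3.06 CPM in DP cells after blockade and 0.798, 2.72 and 1.67 CPM after isotype. In DN cells its levels were 1.31, 1.52 and 1.39 CPM after blockade and 2.64, 1.303 and 2.68 CPM after isotype. The DP blockade libraries were the highest of all 12, and the other 3 groups overlapped. Maf was higher in DP than in DN cells after blockade, at 4.07 ± 1.15 against 1.41 ± 0.103 CPM (SD, n = 3 each), a log2 fold change of 1.53 ± 0.48 (adjusted p = 0.0332 by edgeR). The call was lost in 5 of 12 fits that each left out a library, those without any 1 of the DN blockade libraries or without DP blockade replicate 1 or 2, with adjusted p up to 0.112. It was also lost with the number in the library names, or that in the titles, as a block. Blockade in DP cells gave 1.23 ± 0.47 without overlap and did not pass (adjusted p = 0.620), and in DN cells -0.65 ± 0.49 (adjusted p = 0.564). Macrophage markers summed to 243 to 523 CPM in DP blockade, 192 to 222 CPM in DP isotype, 66.0 to 202 CPM in DN blockade and 69.4 to 94.4 CPM in DN isotype libraries. The part of such cells in the Maf level was not tested.

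Zeb2 had 57.6, 52.0 and 46.9 CPM in DP cells after blockade and 54.9, 57.0 and 57.1 CPM after isotype. In DN cells it had 57.1, 56.2 and 38.5 CPM after blockade, against 44.6, 51.5 and 33.5 CPM after isotype. The group means lay between 43.2 and 56.3 CPM, and overlap was absent in 1 contrast, DP over DN cells after isotype, which gave a log2 fold change of 0.38 ± 0.17 (adjusted p = 0.117 by edgeR). That contrast passed in 1 fit, without DN isotype replicate 2, at 0.53 with an adjusted p of 0.0483. The other contrasts gave 0.05 ± 0.17 for DP over DN cells after blockade, 0.23 ± 0.17 for blockade in DN cells and -0.11 ± 0.17 for blockade in DP cells, with adjusted p of 0.873, 0.565 and 0.952. Its counterpart Zeb1 was lower in DP than in DN cells, by -0.71 after blockade (adjusted p = 0.00703) and -0.90 after isotype (adjusted p = 0.00125).

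**Figure D2:**
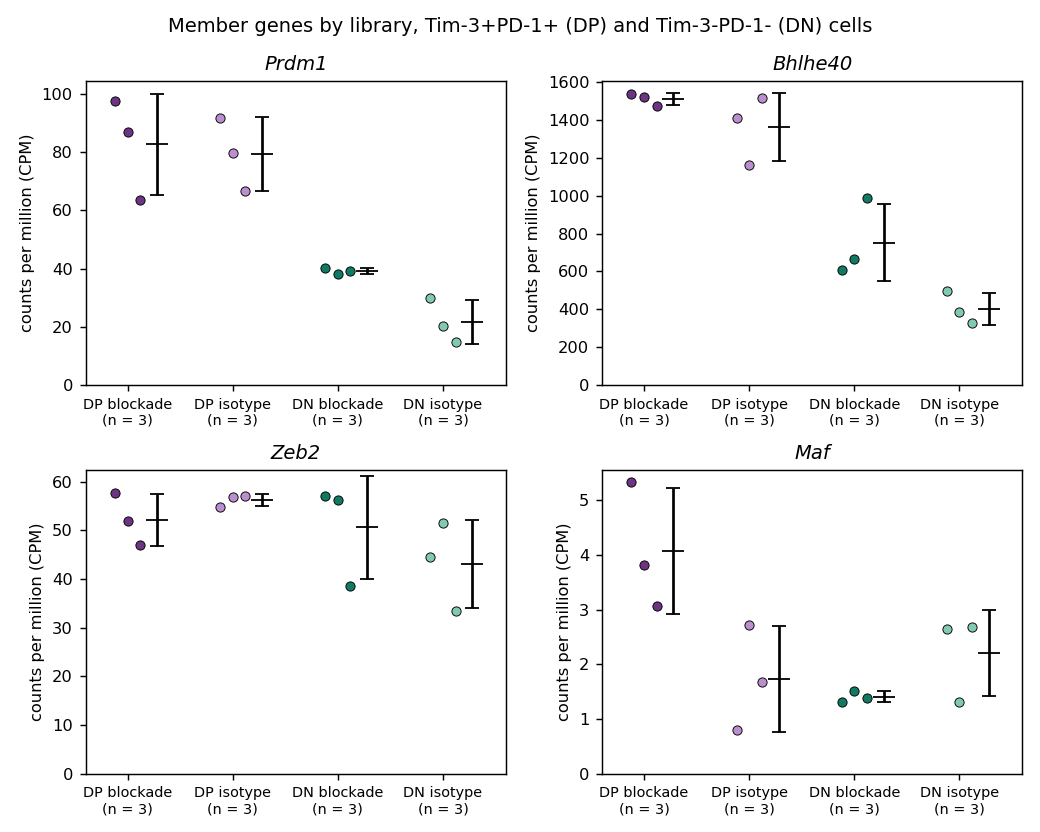
CPM of the 4 genes in each treatment library (points) with group mean and SD (bars, n = 3 each) for Tim-3+PD-1+ (DP) and Tim-3-PD-1- (DN) cells after blockade or isotype, each panel on its own axis from 0. Prdm1 and Bhlhe40 stand higher in DP cells and, within DN cells, higher after blockade, with Bhlhe40 at 606 to 986 CPM against 325 to 495 CPM.

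Markers of other cells moved with these groups. Red cell genes summed to 0.253 to 118 CPM in DN blockade libraries, against 2708 to 5310 CPM in DN isotype libraries, and to 0.470 to 14.1 CPM in DP blockade, against 1403 to 3286 CPM in DP isotype libraries. All 5 tested red cell genes were lower with blockade in DN cells and 4 of 5 in DP cells. Plasmacytoid dendritic cell markers, all 10 measured, summed to 500 to 595 CPM in DP blockade, 410 to 413 CPM in DP isotype, 1395 to 2113 CPM in DN blockade and 2236 to 3303 CPM in DN isotype libraries. Markers of CD4 and regulatory T cells, all 6 measured, summed to 459 to 647 CPM in DP blockade, 449 to 586 CPM in DP isotype, 176 to 296 CPM in DN blockade and 203 to 270 CPM in DN isotype libraries. Of these 6, 4 were higher and 1 lower in DP than in DN cells after blockade, and 5 higher and 1 lower after isotype. Of 5 measured markers of NK and gamma-delta T cells, 2 were lower in DP than in DN cells after blockade and 3 after isotype. The part of these cells in the levels of Prdm1, Bhlhe40, Maf and Zeb2 was not tested.

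Gene lists around these factors differed between DP and DN cells too. Of 13 measured genes known to be repressed by Blimp-1, 8 were lower in DP cells after blockade, beside 12.5% of all genes (median log2 fold change -2.40, against -0.04 over all genes), and 9 after isotype, beside 14.8% of all genes (median -2.65, against 0.003). The Bhlhe40-linked cytokine Ifng was higher in DP cells by 2.13 after blockade and 2.61 after isotype. Il10, which Bhlhe40 is known to limit and c-Maf to activate, was higher in DP cells after blockade (2.25, adjusted p = 0.0311 by edgeR). Of the genes that Zeb2 is known to raise, 4 of 8 were higher and 2 of 8 lower in DP cells after either treatment, with medians of 0.77 after blockade and 1.18 after isotype. Beside them 14.4% of all genes were higher and 12.5% lower after blockade, and 15% higher and 14.8% lower after isotype. Perforin, Prf1, was higher by 3.41 and 4.43, while Klrg1 gave 0.28 and 0.57 and did not pass (adjusted p = 0.752 and 0.502). The Ly49 receptor gene Klra9 was lower after isotype, by -5.02. In DN cells, blockade lowered 2 of 13 Blimp-1 repressed genes, Myc (-0.86) and Ccr7 (-1.60), beside 0.598% of all genes called lower, and raised 2 of 8 Zeb2-raised genes, Klrc1 (0.98) and Prf1 (1.38), beside 0.519% called higher. It also raised Tbx21 by 1.002 and Ifng by 1.20. With the replicate block, under which 0.464% of genes were called, Ifng lost its call (1.20, adjusted p = 0.0564 by edgeR), and the other 5 kept theirs with adjusted p of 0.0191 to 0.0453. With that block on the DN libraries alone none of these 6 passed (adjusted p of 0.0524 to 0.082). In DP cells no gene of these lists was called with blockade.

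**Figure D3:**
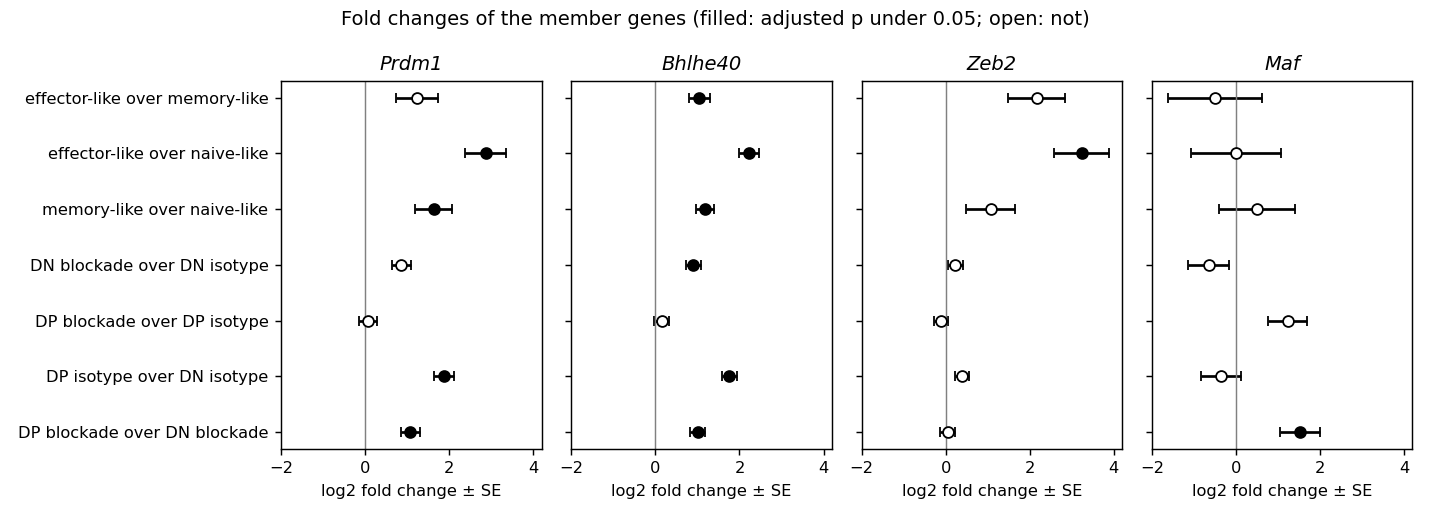
Log2 fold changes (points) and standard errors (bars) of the 4 genes in the 3 subset and 4 treatment comparisons, filled where the adjusted p was under 0.05. Prdm1 and Bhlhe40 lie above 0 throughout, from 0.06 and 0.15 with blockade in DP cells to 2.87 and 2.23 between effector-like and naive-like cells, whereas Zeb2 is above 1 between subsets and between -0.11 and 0.38 in the treatment experiment.

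The genes closest to each factor were sought by the root mean square difference of centred log2 CPM over all 26 bulk libraries, among 7687 genes tested in both experiments with a mean of at least 10 CPM in both. Bhlhe40 had the smallest distances, to Cish, a feedback inhibitor of cytokine signalling (0.29 log2 units), Endod1 (0.34) and Klrc1, which encodes the receptor NKG2A (0.34), where the median gene differed by 0.96. It also varied least about its own mean, by 0.875 log2 units, against 1.06 for Maf, 1.25 for Prdm1 and 1.51 for Zeb2. The Pearson correlation of Bhlhe40 with Cish, 0.945, was close to that of Zeb2 with Casp1, 0.944. Among the genes nearest to Prdm1 were Slc2a3, a glucose transporter (0.53), and Casp1, an inflammatory caspase (0.61), against a median of 1.31. Zeb2 was nearest to Casp1 (0.50), N4bp3 (0.72) and Prdm1 itself (0.72), against a median of 1.56. Maf had no close neighbour: the nearest genes, Rabgef1, Supt16 and Rrp1b, differed by 0.77 to 0.81, against a median of 1.13. The libraries share groups, sort and preparation, so these distances are descriptions.

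In single DN cells, all 4 transcripts were more abundant in the blockade than in the isotype library. With 1 library per group there is no test of treatment, and intervals cover counting error only. After filtering, 2502 blockade and 2950 isotype cells remained, with medians of 3839.5 and 3652 unique molecular identifiers (UMIs) per cell, and 7 barcodes occurred in both libraries. Of these cells 2412 and 2902 fell into 11 clusters of T cells. The other 90 and 48 cells, led by tumour, macrophage or dendritic genes, held 16.7 and 8.26% of the UMIs. The cells of each library were told by the number at the end of their barcodes, matched to the sample number in the labels, a match that the labels do not state outright.

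By point value Bhlhe40 had the largest ratio of the 4 between the libraries, although that of Maf over all cells lay close to it. Over all cells it had 216.6 CPM (95% interval 208.5 to 225) in the blockade library and 65.05 CPM (60.6 to 69.7) in the isotype library, a ratio of 3.33 (3.08 to 3.61). At least 1 UMI was found in 46.4% of blockade and 15.6% of isotype cells, and in 27.6 and 8.37% after each cell was thinned to 1600 UMIs. Pooled over all T cell clusters the ratio was 3.86, between libraries of different make-up: naive-like cells were 25 of the 2412 blockade and 830 of the 2902 isotype T cells. Cluster by cluster it was smaller in most cases, at 1.18 in the cluster led by Ifitm1 and Cxcr6 and 1.20 in effector-like cells, and it reached 4.67 in cycling-like cells. In the naive-like cells of the isotype library, which should hold little of it, 2.17% had a UMI at a median depth of 3398 UMIs. Prdm1 had 8.47 CPM (6.93 to 10.3) after blockade and 5.00 CPM (3.84 to 6.41) after isotype, a ratio of 1.69 (1.22 to 2.36), with UMIs in 3.88 and 2.00% of cells. Thinned, these shares were 1.36 and 0.983%, and 0.482% of naive-like isotype cells had a UMI of Prdm1.

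For Zeb2 and Maf, cells that were not T cells held much of the signal. Zeb2 had 32.0 CPM in the blockade and 12.5 CPM in the isotype library, a ratio of 2.56 (2.12 to 3.10), but 41.6% of its UMIs in the blockade library came from 42 macrophage-like cells, where it reached 378 CPM. In T cell clusters it had 15.4 CPM (13.1 to 17.98) after blockade and 10.3 CPM (8.51 to 12.3) after isotype, and the ratio was 1.50 (1.17 to 1.92). The same 42 cells held 44.7% of the Maf UMIs. Maf had 8.31 CPM (6.78 to 10.1) after blockade and 2.66 CPM (1.83 to 3.74) after isotype over all cells. This ratio of 3.12 rested on 103 and 33 UMIs. In T cell clusters Maf had 5.32 and 2.46 CPM, a ratio of 2.16. Of naive-like isotype cells, 0.361% had a UMI of Zeb2 and 0.843% (0.340 to 1.73) of Maf. Maf was found in 2.33% (1.01 to 4.53) of effector-like isotype cells and in 3.10% (0.851 to 7.75) of the isotype cells in the cluster led by Ifitm1 and Cxcr6, so the counting intervals overlapped that of naive-like cells.

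Between clusters the genes were unevenly spread. Bhlhe40 was highest among T cells in the cluster led by Ifitm1 and Cxcr6, at 482 CPM after blockade and 409 CPM after isotype, and in effector-like cells (Gzma, Klrg1) it had 248 and 207 CPM. In cycling-like cells it had 270 CPM after blockade and 57.9 CPM after isotype. The Ly49 memory-like cells (Klra7, Ikzf2) had 121 and 80.5 CPM. Its level was higher after blockade in 8 of 11 T cell clusters, with counting intervals apart in 3: the cycling-like cells, the Ly49 memory-like cells and the cluster led by Itm2a and Gzmm (47.9 and 23.1 CPM). The 3 others were the cluster led by S100a4 and Zbtb32 (93.2 and 110 CPM) and 2 clusters with few blockade cells and no UMI in them, the 25 naive-like cells, which allow up to 32.3 CPM against 7.64 CPM after isotype, and the 9 cells of the cluster led by Mettl1 and Kdm6b, which allow up to 78.4 CPM against 5.68 CPM.

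Zeb2 was concentrated in effector-like cells, with 38.7 CPM (29.8 to 49.6) after blockade and 72.1 CPM (56.2 to 91.1) after isotype, and it was also found in the cluster led by Ifitm1 and Cxcr6, with 17.1 CPM (12.4 to 22.8) and 41.6 CPM (25.05 to 64.96). In both clusters the blockade library was the lower one and the intervals of CPM were apart, opposite to the direction over all T cells. The shares of cells with a UMI of Zeb2 were lower too, but their intervals overlapped. They were 10.9% (8.18 to 14.2) and 13.1% (9.70 to 17.1) in effector-like cells after blockade and isotype. In the cluster led by Ifitm1 and Cxcr6 they were 6.75% (4.89 to 9.05) and 13.2% (7.87 to 20.3). Among the T cell clusters with UMIs of Zeb2 in both libraries its CPM was lower after blockade in 5 and higher in 3. The latter included the cycling-like cells (19.9 and 6.89 CPM), where the intervals overlapped. The other 3 clusters had no UMI after blockade, which allows up to 32.3 CPM in naive-like cells, 78.4 CPM in the cluster led by Mettl1 and Kdm6b and 3.88 CPM in that led by Itm2a and Gzmm, above their 1.04, 1.14 and 0.733 CPM after isotype. Prdm1 had 14.8 and 17.5 CPM in effector-like cells after blockade and isotype and 12.1 and 13.1 CPM in the cluster led by Ifitm1 and Cxcr6. Neither Prdm1 nor Maf had intervals apart between the libraries in any T cell cluster.

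**Figure D4:**
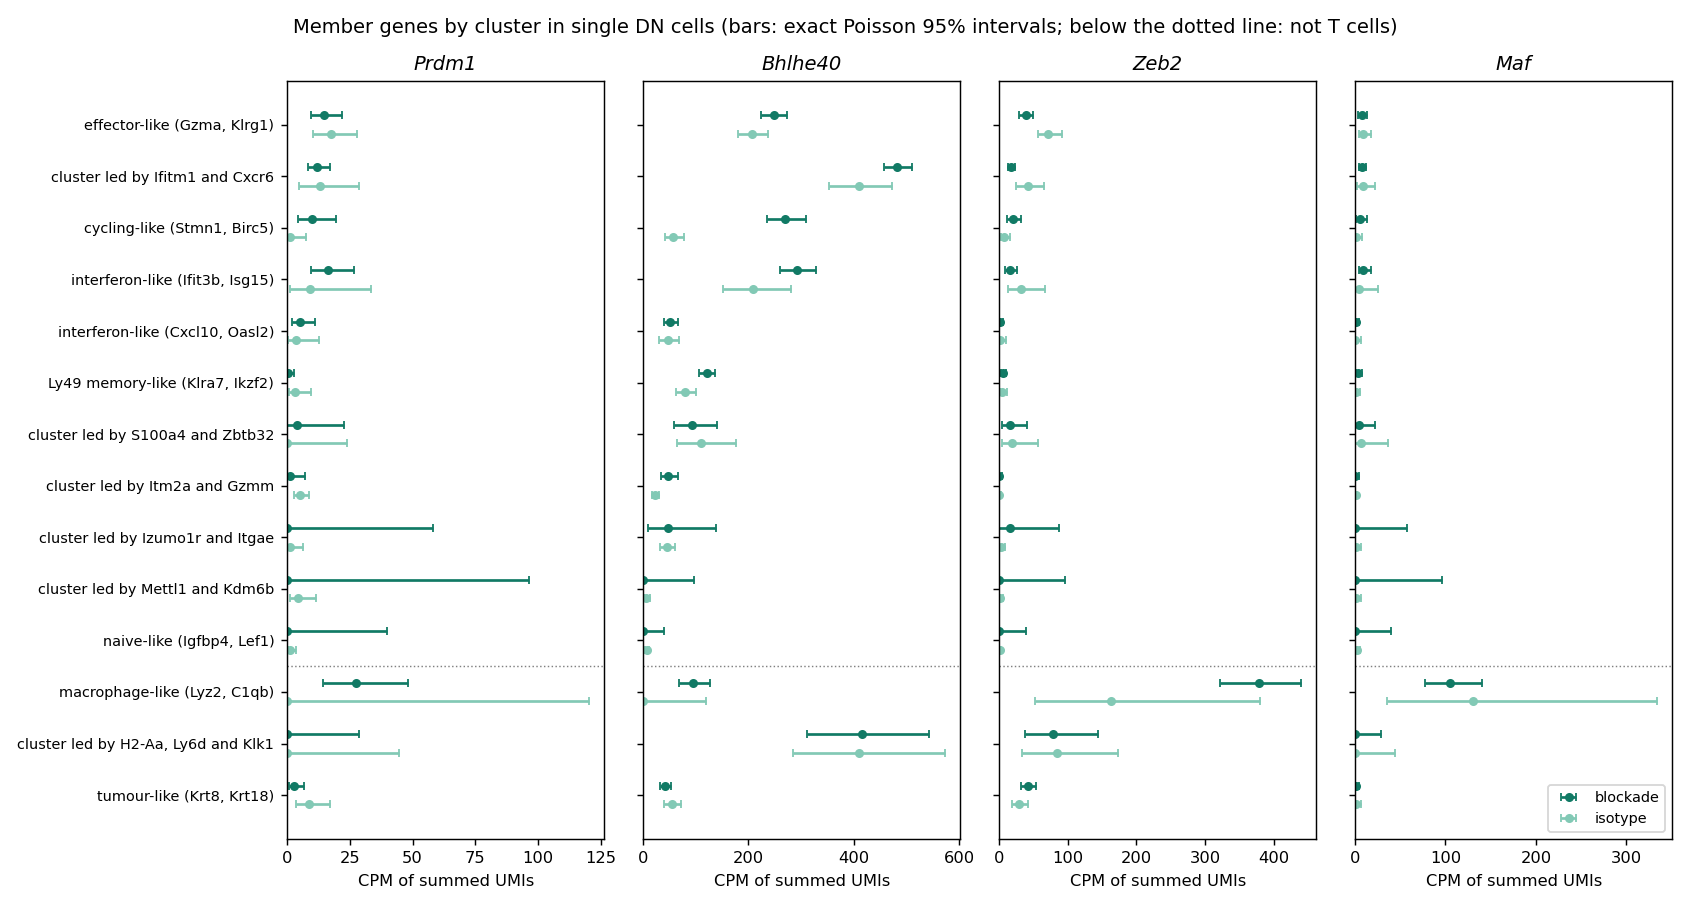
CPM of summed UMIs of the 4 genes in each cluster of single DN cells, blockade above isotype, with exact Poisson 95% intervals of counting error, on axes of different range; clusters under the dotted line are not T cells. Among T cells Bhlhe40 peaks in the cluster led by Ifitm1 and Cxcr6 (482 and 409 CPM), beside 415 and 410 CPM in the dendritic cluster led by H2-Aa, and Zeb2 in macrophage-like cells (378 CPM after blockade) and, among T cells, in effector-like cells.

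Shares of cells with Zeb2 or Bhlhe40 were then set beside other genes of the same cells. In T cell clusters, a UMI of Zeb2 was found in 25.2% of blockade and 26.6% of isotype cells with Klrg1, against 4.39 and 2.47% of cells without it. Split by Cx3cr1, the shares were 27.9 and 32.4% with it, against 4.94 and 2.62% without it. Bhlhe40 was found in 58.4% of blockade and 36.1% of isotype cells with Ifng, against 38.4 and 10.97% of cells without it, and in 31.4 and 9.53% of cells with the homing receptor Ccr7, against 51.6 and 20.8% of cells without it. Bhlhe40 and Zeb2 also met in the same cells: 72.9% of blockade and 51.7% of isotype cells with Zeb2 had Bhlhe40, against 44.6 and 14.1% of cells without Zeb2. After each cell was thinned to 1600 UMIs, Zeb2 was found in 9.62% of blockade and 19.05% of isotype cells with Klrg1, against 2.16 and 1.57% without it, and Bhlhe40 in 38.3% of blockade and 20.8% of isotype cells with Ifng, against 25.03 and 6.81% without it. The thinned shares of Bhlhe40 were 35.7 and 35.8% with Zeb2, against 27.9 and 7.83% without it. The gap in the blockade library was thus smaller at equal depth. Its counting intervals overlapped there (23.4 to 49.6% with Zeb2, 26.1 to 29.7% without it), unlike in the isotype library. These are shares of cells of 1 library each, with no test.

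**Figure D5:**
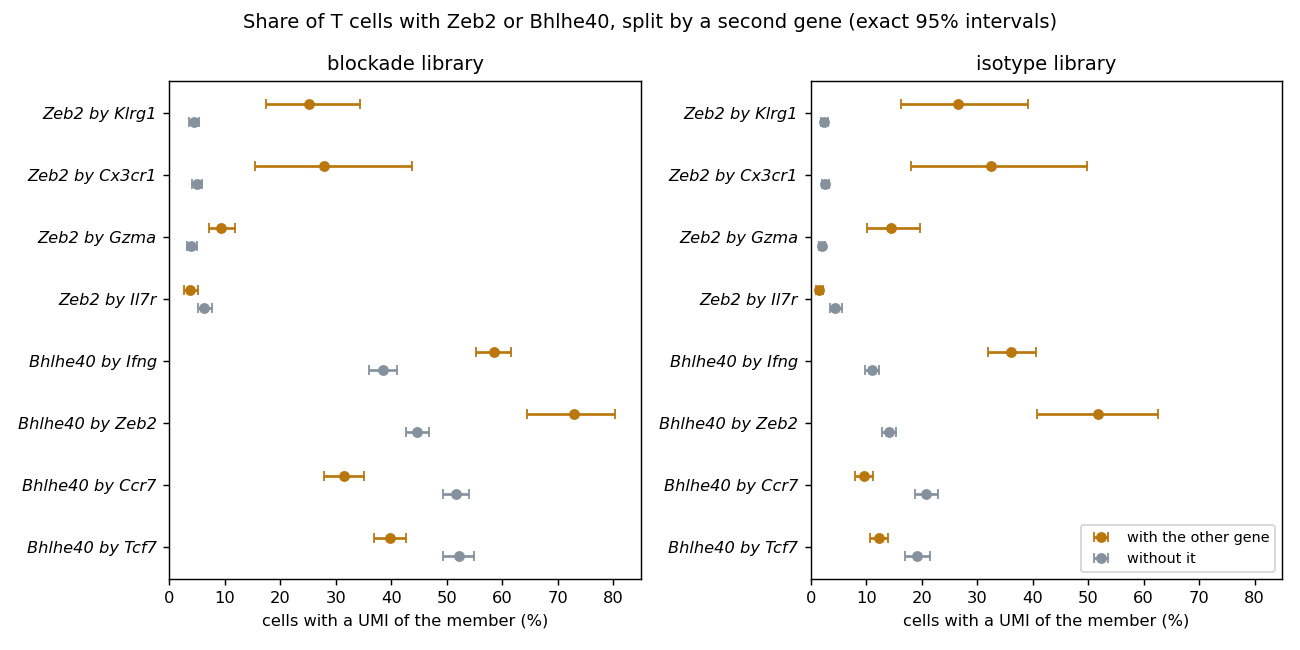
Share of T cells (%) with at least 1 UMI of Zeb2 or Bhlhe40 among cells with and without a second gene, in the blockade (left) and isotype (right) library, with exact binomial 95% intervals of counting error. Zeb2 was found in 25.2 and 26.6% of cells with Klrg1, and Bhlhe40 in 58.4 and 36.1% of cells with Ifng.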

How the data were processed

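Per the labels' protocols, bulk libraries came from about 2000 lysed cells by a modified SMART-Seq2 method, and single-cell libraries from 10x Chromium 3′ v2 kits. The submitters' processing notes name TopHat, RSEM, DESeq and mm9 for bulk, and Cell Ranger 1.3 and mm10 for single cells, without roles. The deposited bulk tables hold expected counts, and the authors' normalized tables a signal of unnamed scale; the deposited single-cell table holds UMI counts. Expected counts were rounded, 4 rows with repeated names left out, and each experiment fitted over all its groups with edgeR 4.0.16 (R 4.3.3; filterByExpr, TMM, quasi-likelihood test, no block), at a biological coefficient of variation of 0.624 (subset) and 0.229 (treatment). DN blockade and DN isotype libraries with the same title number correlated at 0.122, 0.383 and 0.184 in their deviations from the group means. DN blockade replicate 1 correlated more, at 0.199, with an isotype library of another number. The title numbers therefore do not clearly mark pairs, and the labels give no reason for a pairing. The fit with that block is given beside results of blockade in DN cells that it changes. Cells were kept from 500 genes upwards and up to 10% mitochondrial UMIs, and clustered with scanpy 1.11.5 (2000 variable genes without the 4 factors, 30 components, 15 neighbours, Leiden resolution 1). A doublet caller marked 7 blockade cells (0.280%) and 1 isotype cell (0.0339%) and had not worked. Intervals are exact Poisson or Clopper-Pearson at 95%. DESeq2 1.42.0, limma 3.58.1 on log2 of the deposited signal plus 1, other scalings and filters, and leaving out each library were alternatives. Named genes are the 4 factors, up to 4 called genes per list by p, and stated counterparts. The genes and lists were chosen with earlier results of these data known. Some genes under these rules are not reported here.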

Additional observations from a re-analysis of the deposited data

Results flagged for a closer look

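Of 8 pairs of a gene and a group with 4 to 10 libraries, 2 held a library far from the others. Prdm1 in naive-like replicate 4 was 0.490 CPM, while the other naive-like libraries lay between 6.75 and 9.76 CPM, and its gap to the nearest of them was 0.676 of the group's range (critical value 0.625). Zeb2 was 0 in the same library, which also had the fewest genes detected (11522) of the subset libraries. Maf in memory-like replicate 2 was 13.6 CPM, against 3.97 CPM or less in the other memory-like libraries, a gap of 0.828 of the range (critical value 0.71). Macrophage markers summed to 470.5 CPM in that library. Chance flags about 1 in 20 such groups. The causes were not tested.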

How the results depend on the processing

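Of 692 recomputed bulk results of the 4 genes, 617 kept their direction and side of the threshold, 48 were no longer called, 12 became called and 15 changed sign. Between effector-like and memory-like cells, Zeb2 became called by DESeq2 (2.15), limma (1.83), on the compared groups alone (2.18) and without the 3 libraries that stood apart (2.37); Prdm1 became called in the last pair of settings (1.25 and 1.18). Bhlhe40 lost that call with upper quartile factors (1.02), a replicate block by title number (1.03) and without the 3 libraries (0.93). Between memory-like and naive-like cells, Prdm1 lost its call on the compared groups alone (1.65) and with a block by library name number (1.93), and Bhlhe40 with that block (1.26). With blockade in DN cells, Prdm1 became called by DESeq2 (0.87), without a filter (0.86) and with the title block (0.91); Bhlhe40 lost its call on DN libraries alone (0.93), with the title block (0.89) and with both (0.92). Maf lost its call between DP and DN cells after blockade with the title block (1.53) and the name block (1.49). Maf changed sign between effector-like and naive-like cells with the title block (-0.14), and without the 3 libraries it gave 0.22, -0.23 and -0.45 for effector-like over memory-like, effector-like over naive-like and memory-like over naive-like cells. The causes were not tested. Apart from DN blockade against DN isotype, same-numbered libraries correlated from -0.334 to 0.326, over title and library name numbers together. By library name number, DP and DN libraries correlated at -0.006, 0.326 and 0.268 after isotype and 0.152, 0.082 and 0.061 after blockade. All but the first exceeded the correlation with DN libraries of other numbers, so these numbers may mark pairs. The main fits took DP and DN libraries as independent. The replicate blocks changed no other call.

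Leaving out 1 library at a time gave these ranges of log2 fold change. Effector-like over memory-like: 1.07 to 1.36 for Prdm1, 0.75 to 1.21 for Bhlhe40, 1.97 to 2.37 for Zeb2 and -1.53 to 0.22 for Maf. Effector-like over naive-like: -1.03 to 0.67 for Maf. Memory-like over naive-like: 1.40 to 1.77 for Prdm1 and -0.21 to 1.18 for Maf. Blockade over isotype: 0.66 to 1.11 for Bhlhe40 in DN cells and -0.053 to 0.24 for Prdm1 in DP cells. DP over DN cells: 0.23 to 0.53 for Zeb2 after isotype, and -0.11 to 0.15 for Zeb2 and 1.31 to 1.72 for Maf after blockade.

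In single cells, ratios of blockade to isotype moved beyond counting error: the share of cells with Prdm1 after thinning (1.38); Bhlhe40 CPM in cells with T cell markers alone (3.77) and in T cell clusters (3.86); Maf CPM and share in cells with T cell markers (2.00 and 1.57); Zeb2 CPM with at least 1000 genes (3.49), after thinning (1.49), in cells with T cell markers (1.66) and in T cell clusters (1.50), and its share after thinning (1.57).

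Numbers of called genes moved by more than 1.5 times: effector-like over memory-like 237, against 484 by DESeq2 and 123 with the title block; effector-like over naive-like 795, against 1319 without the 3 libraries; memory-like over naive-like 683, against 1195 by DESeq2 and 174 with the name block; blockade in DN cells 142, against 541 by DESeq2, 224 without a filter, 226 by limma, 59 with the title block, 21 with it on DN libraries alone and 2 on DN libraries alone; blockade in DP cells 8, against 56 by DESeq2, 17 without a filter, 16 on DP libraries alone and 4 with the title block. Leaving out 1 library moved effector-like over memory-like to 105, 153 and 156 (without effector-like 2, effector-like 1 or memory-like 3), effector-like over naive-like to 484 and 517 (effector-like 1 or 2) and memory-like over naive-like to 340 and 429 (memory-like 1 or 3). Blockade in DN cells gave 22, 28, 42, 82 and 229 without DN isotype 1, DN isotype 2, DN blockade 3, DN blockade 1 or DN isotype 3, and 57 to 78 without any DP library but DP isotype 2. Blockade in DP cells gave 3 and 4 without DP isotype 1 or 3, and 5 without DP blockade 1 or 2. The DN calls split 66 higher and 76 lower, against 74 and 57 with upper quartile factors and 62 and 164 by limma, and the memory-like over naive-like calls 345 and 338, against 539 and 331 by limma. Omitting the 3 libraries, the block on DN libraries alone, the block for list genes and the restriction to T cell clusters were chosen after the data were seen.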
